A study of Mus musculus with 6 samples.

Results

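The collagen gene family was described in cultured mouse aortic cells whose labels call them ERK1/2 null or ERK1/2 wild type endothelial cells. Its members were all genes whose symbol is Col, a number, a and a number and to which the array's annotation gave a row of their own. These were 39 of the 14860 genes measured, with 1 row each. They were taken as 11 fibrillar genes (types I, II, III, V, XI, XXIV and XXVII), 8 basement membrane genes (types IV, XV and XVIII) and 20 others. Of the 44 collagen genes in the gene table, Col6a4, Col6a5, Col19a1, Col22a1 and Col28a1 were not analysed here.

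RNA was measured on 6 Affymetrix expression arrays, 3 for each group. Cells came from the aorta of mice aged 4 weeks (strain label C57/BL6, 5 generations) and grew in medium with 20% serum. The ERK1/2 null cultures carried the genotype Erk1-/-; Erk2 fl/fl and received a lentivirus with Cre recombinase, which the genotype label gives as egfp-Cre for replicate 1 and as Cre for replicates 2 and 3, while the source label gives egfp-Cre for all 3. The wild type cultures carried the same genotype, Erk1-/-; Erk2 fl/fl, and received a lentivirus with green fluorescent protein and no Cre. By that label the Erk1 deletion was common to both groups, and the groups differed in Cre and in the Erk2 it deletes. The titles call the arrays biological replicates, but no label says that they came from separate mice, so p-values measure the spread between these cultures. The level of the targeted genes was not analysed here. Values are log2 expression after RMA (robust multi-array average), so that 1 unit is a 2-fold difference, and differences are ERK1/2 null minus wild type. A gene was called at a limma adjusted p under 0.05 over all 14860 genes.

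Collagens are secreted or membrane proteins in which chains rich in glycine and proline wind around each other into a triple helix. Fibrillar collagens assemble into the cables that give the arterial wall its tensile strength, collagen IV forms the sheet under endothelium and around smooth muscle cells, and collagen VI forms beaded filaments beside the basement membrane. Several types are built from chains of more than 1 gene, and enzymes in the secretory pathway and outside the cell hydroxylate, trim and cross-link them.

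The cell type label was set against marker genes, which went against it in part. Of 12 endothelial markers, 10 lay in the dimmest 33.3% of genes by mean signal, among them Pecam1, Cdh5, Kdr, Tek and Vwf, and only Eng lay in the brighter 50%. Of 9 fibroblast markers 5 lay in the brighter 50% and 2 in the dimmest 33.3%, with Pdgfra at percentile 96.6 and Tcf21 at 20.3. Of 9 smooth muscle markers 3 lay in the brighter 50% and 3 in the dimmest 33.3%, with Acta2 at percentile 99.7 and Myh11 at 28.7. All 6 leukocyte and all 4 mesothelial markers lay in the dimmer 50%. The cultures are therefore called by their group names. In bulk RNA, fewer cells of a type and less RNA per cell cannot be told apart.

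More collagen genes rose than fell in ERK1/2 null cultures. Of the 39 genes 7 rose and 1 fell, against 5.35% of all genes tested called higher and 6.12% called lower, and 31 did not pass. The genes that rose were Col3a1, Col6a2, Col6a1, Col4a5, Col14a1, Col5a1 and Col1a2, by 0.82 to 2.17 on the log2 scale (1.76-fold to 4.50-fold), and the gene that fell was Col2a1. As a share, 17.9% of collagen genes were called higher and 2.56% lower. The median difference was 0.13 over the 39 genes and 0.02 over all genes. With array medians subtracted or with quantile normalization the split of calls was 6 higher and 2 lower, since Col1a2 was no longer called and Col18a1 was called lower. The replicate numbers of the titles went with shared deviations of the arrays, and with the number as a block in the fit 9 collagen genes were higher and 3 lower, against 8.92% and 7.76% of all genes. The genes added by the block were Col1a1 and Col4a6, which were higher, and Col15a1 and Col18a1, which were lower. All 8 genes called without the block were also called with it.

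**Figure D1:**
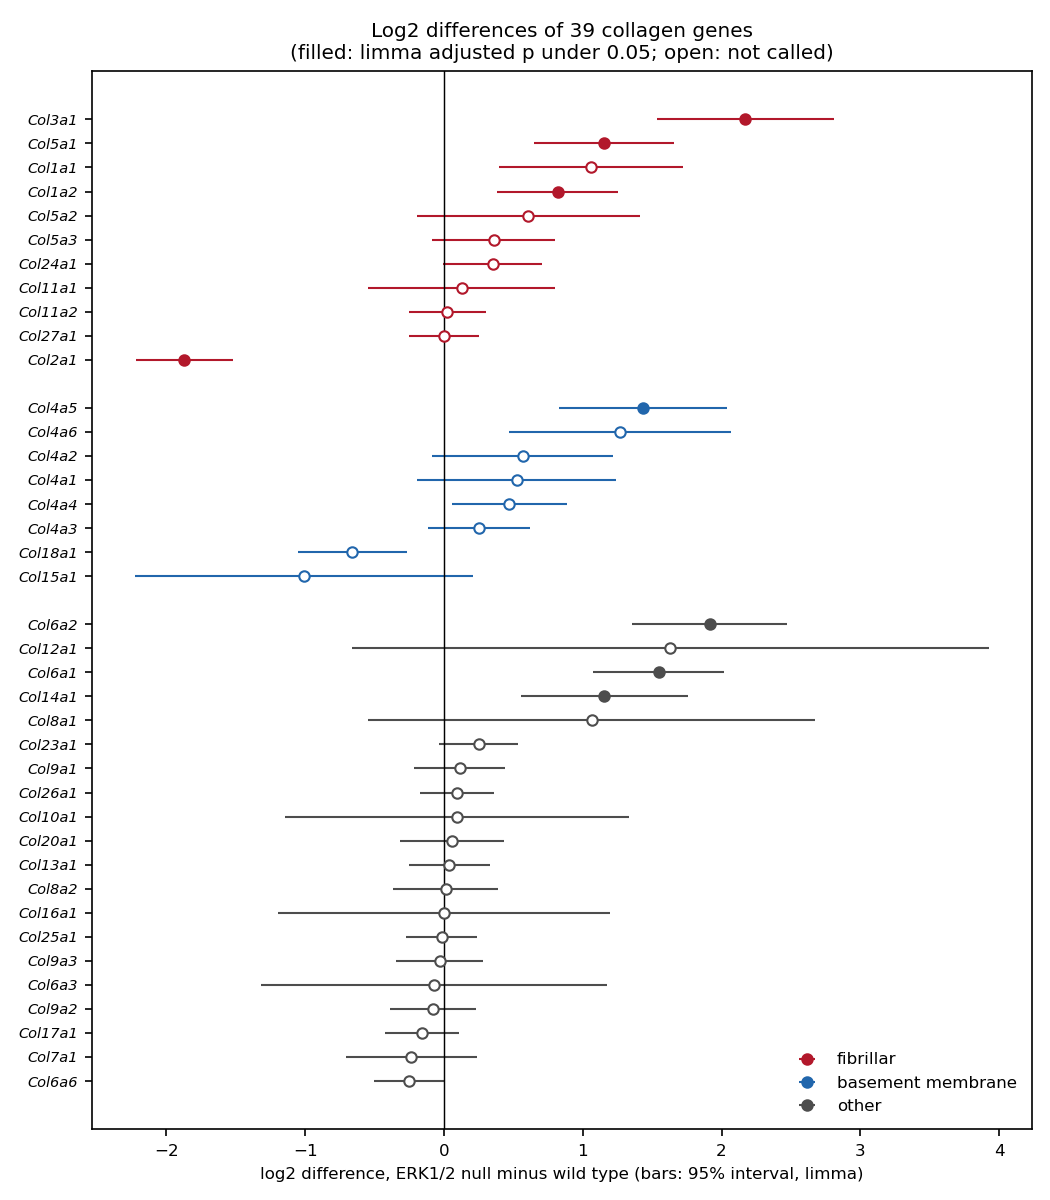
Log2 difference (ERK1/2 null minus wild type, horizontal axis) of the 39 collagen genes by class, with limma 95% intervals and 3 arrays per group. Filled points passed the adjusted p threshold: 7 lie to the right of 0 and Col2a1 to the left, and the widest interval is that of Col12a1.

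Most calls lay among collagen genes with a bright signal, as over all genes, where 1413 of the 1705 called lay in the brighter 50%. Of the 20 members in the brighter 50% of genes 6 rose and 1 fell, where 8.44% of all brighter genes rose and 10.6% fell. Of the 19 members in the dimmer 50%, Col14a1 alone was called, and 11 had differences smaller than 0.20 in size. Differences that small were found for 6960 of all 14860 genes and for 2494 of the 7430 brighter genes. RMA can compress differences of dim rows, and its part in these values was not tested. Over all 39, the 3 ERK1/2 null arrays lay above the 3 wild type arrays for 13 genes and below them for 3, against 16.5% and 14.6% of all genes tested. Within all 3 numbered pairs 19 members were higher and 5 lower, against 28.3% and 23.3% of all genes.

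Among the fibrillar genes 3 of 11 rose, 1 fell and 7 did not pass, with a median difference of 0.36. Col3a1, which encodes the homotrimeric collagen III of distensible tissues such as the aorta, had 9.95, 10.64 and 10.998 in ERK1/2 null arrays 1, 2 and 3, against 8.36, 8.27 and 8.45 in wild type arrays. Every null array lay more than 1 unit above every wild type array. Its mean was 10.53 ± 0.53 in ERK1/2 null and 8.36 ± 0.09 in wild type cultures (SD, n = 3 each), a 4.50-fold rise (log2 difference 2.17, 95% interval 1.53 to 2.81, limma adjusted p = 0.0059), the largest of the 39 genes. The call was kept whichever of the 6 arrays was left out.

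Collagen I, the main collagen of scar, skin and adventitia, is made of chains from Col1a1 and Col1a2, and both had a higher signal in ERK1/2 null arrays. Col1a2 had 12.29, 11.98 and 12.41 in ERK1/2 null arrays, against 11.63, 11.14 and 11.46 in wild type arrays, and the groups did not overlap. It rose by 0.82 (95% interval 0.38 to 1.25, limma adjusted p = 0.036), and the call was lost in 5 of the 6 leave-one-out fits (adjusted p up to 0.110 without null replicate 3), with quantile normalization (0.071) and with array medians subtracted (0.066). Col1a1 had 12.24, 12.61 and 12.78 in ERK1/2 null arrays, against 11.16, 11.23 and 12.05 in wild type arrays, with wild type replicate 3 nearest the null arrays. Its difference of 1.06 did not pass (95% interval 0.40 to 1.72, limma adjusted p = 0.059) and passed with the block (limma adjusted p = 0.015). Col1a1 also passed with the filter on level (0.043), with array weights (0.041) and without wild type replicate 3 (0.027). It did not pass in the other 5 fits without an array (adjusted p up to 0.169 without null replicate 2).

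Collagen V is a minor partner of collagen I fibrils that limits their diameter. Its α1 chain gene Col5a1 had 9.53, 9.89 and 9.90 in ERK1/2 null arrays, against 9.01, 8.33 and 8.52 in wild type arrays, without overlap. It rose 2.22-fold (log2 difference 1.15, SE 0.21, limma adjusted p = 0.019), and lost the call in 4 of 6 fits without an array (adjusted p up to 0.078 without null replicate 2). The partner genes Col5a2 and Col5a3 had differences of 0.61 (95% interval −0.20 to 1.41) and 0.36 (−0.09 to 0.80), with overlapping groups, and did not pass (limma adjusted p = 0.32 and 0.29). Both were higher within all 3 numbered pairs (Col5a2 by 0.27, 0.81 and 0.74). Neither passed with the block (limma adjusted p = 0.055 and 0.16).

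Col2a1, the fibrillar collagen of cartilage, went the other way. It had 7.66, 7.93 and 7.73 in ERK1/2 null arrays, against 9.68, 9.44 and 9.83 in wild type arrays, so that every null array lay more than 1 unit below every wild type array. The gene fell to a mean of 7.78 ± 0.14 in ERK1/2 null cultures, against 9.65 ± 0.20 in wild type cultures (SD, n = 3 each; log2 difference −1.87, 95% interval −2.22 to −1.52, limma adjusted p = 0.0018). This 3.66-fold fall had the lowest adjusted p of the collagen genes and was kept in all 6 fits without an array. Collagen XI, which co-assembles with collagen II in cartilage, had differences of 0.13 (Col11a1, 95% interval −0.55 to 0.80) and 0.02 (Col11a2, −0.25 to 0.30). The minor fibrillar genes Col24a1 and Col27a1 had differences of 0.35 and less than 0.01, and neither passed. The groups of Col24a1, which was dim, did not overlap.

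**Figure D2:**
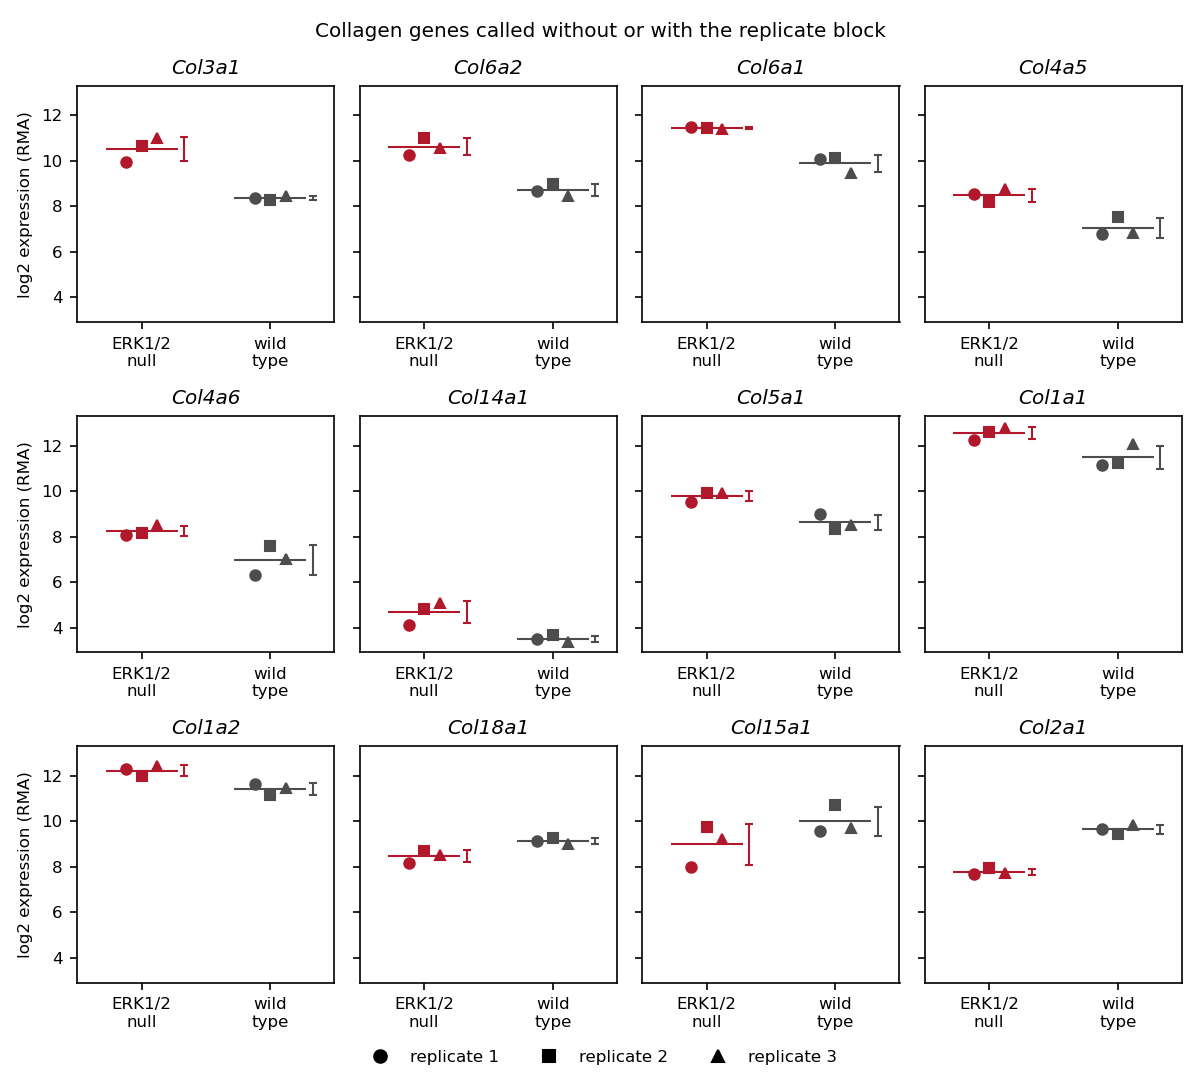
Log2 expression on each array (vertical axis) of the 12 collagen genes called without or with the replicate block, ERK1/2 null left and wild type right. Symbols mark the replicate number, horizontal lines the mean of 3 arrays and bars the SD. The groups overlap only for Col15a1.

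Collagen IV genes had differences above 0 in all 6 measured members, of which 1 passed, and Col15a1 and Col18a1 had differences below 0. Of all 14860 genes 7976 had a difference above 0, and 5.35% were called higher and 6.12% lower. The median over the 8 basement membrane genes was 0.50. Col4a5, whose α5 chain forms a minor collagen IV network and is mutated in Alport syndrome, had 8.52, 8.19 and 8.74 in ERK1/2 null arrays, against 6.80, 7.54 and 6.81 in wild type arrays. The groups were apart, with wild type replicate 2 closest to the null arrays. Col4a5 rose 2.70-fold (log2 difference 1.43, SE 0.25, limma adjusted p = 0.017), and lost the call without null replicate 3 or wild type replicate 3 (adjusted p up to 0.066) and without replicate 1 of both groups (0.078). Its partner chain gene Col4a6 had 8.06, 8.16 and 8.51 in ERK1/2 null arrays, against 6.29, 7.60 and 7.04 in wild type arrays. Its difference of 1.27 (95% interval 0.47 to 2.07) did not pass (limma adjusted p = 0.060), and passed with the block (limma adjusted p = 0.028). Col4a6 also passed with the filter on level (0.043) and without wild type replicate 2 (0.036), and in none of the other 5 fits without an array.

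The genes of the widespread α1 and α2 chains, Col4a1 and Col4a2, had differences of 0.52 (95% interval −0.19 to 1.24) and 0.57 (−0.09 to 1.22) with overlapping groups. Both were higher within all 3 numbered pairs and passed neither without nor with the block (limma adjusted p = 0.34 and 0.26, blocked 0.11 and 0.13). The genes of the α3 and α4 chains, Col4a3 and Col4a4, lay among the dimmer 50% of genes. They had differences of 0.25 and 0.47 with limma adjusted p of 0.37 and 0.15. For both, every null array lay above every wild type array, as for 16.5% of all genes.

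Col18a1 and Col15a1 encode basement membrane proteoglycans whose ends can be cut to endostatin and its relative. Col18a1 had 8.18, 8.69 and 8.53 in ERK1/2 null arrays, against 9.12, 9.26 and 8.99 in wild type arrays, without overlap. Its difference of −0.66 (95% interval −1.05 to −0.26) did not pass (limma adjusted p = 0.052) and passed with the block (limma adjusted p = 0.037). Col18a1 also passed with array medians subtracted (0.018), quantile normalization (0.029) and the filter on level (0.039), and in none of the 6 fits without an array. Col15a1 had 7.998, 9.73 and 9.22 in ERK1/2 null arrays, against 9.56, 10.71 and 9.70 in wild type arrays, where null replicate 2 lay above wild type replicates 1 and 3. Within numbered pairs it was lower each time (−1.56, −0.97 and −0.49), and its difference of −1.01 passed with the block alone (limma adjusted p = 0.28, blocked 0.038). It was −0.52 without null replicate 1 and −0.65 without wild type replicate 2.

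In the remaining class 3 of 20 genes rose and none fell in this test, where 5.35% of all genes rose and 6.12% fell. The median difference of the class was 0.05, which turned to −0.03 with array medians subtracted and −0.02 with quantile normalization. The median over all genes also changed sign, from 0.02 to −0.06 and −0.01 in these fits. Of these 20 genes 12 had differences smaller than 0.20 in size, and 13 lay among the dimmer 50% of genes. Among the called genes of the class, 2 of collagen VI had the largest rises. Col6a1, for the α1 chain of the beaded filaments, had 11.47, 11.43 and 11.40 in ERK1/2 null arrays, against 10.09, 10.12 and 9.46 in wild type arrays. It rose 2.92-fold (log2 difference 1.55, 95% interval 1.07 to 2.02, limma adjusted p = 0.0066), and the null arrays spread over less than 0.10. Col6a2, for the α2 chain, had 10.27, 11.01 and 10.58 in ERK1/2 null arrays, against 8.66, 8.999 and 8.46 in wild type arrays. It rose 3.77-fold (log2 difference 1.91, 95% interval 1.36 to 2.47, limma adjusted p = 0.0056). The groups of both genes were more than 1 unit apart, and both calls were kept whichever array was left out.

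The gene of the third chain, Col6a3, was not called. It had 9.70, 9.91 and 9.56 in ERK1/2 null arrays, against 8.65, 10.84 and 9.89 in wild type arrays, whose range enclosed the null values. Its difference was −0.07 with a 95% interval of −1.32 to 1.17 (limma adjusted p = 0.95), which is wide because the wild type SD was 1.10. The log2 ratio of Col6a2 to Col6a3 signal within an array was 0.57, 1.11 and 1.02 in ERK1/2 null arrays and 0.01, −1.84 and −1.43 in wild type arrays, without overlap. The difference of 1.99 between the group means had an exact 2-sided permutation p of 0.10, the smallest that 3 against 3 arrays allow. The corresponding ratio of Col6a1 to Col6a3 differed by 1.62 (exact permutation p = 0.10), and that of Col6a1 to Col6a2 by −0.37 with overlapping groups (exact permutation p = 0.30). Of the 7 pairs of partner chains compared in collagens I, IV, V and VI, 3 had this smallest p (Col6a2 to Col6a3, Col6a1 to Col6a3 and Col5a1 to Col5a3), which adjusts to 0.23, so that no pair could pass in this design and the test does not tell whether partner chains differ. Within numbered pairs the ratio of Col6a2 to Col6a3 differed by 0.56, 2.95 and 2.45, and that of Col6a1 to Col6a3 by 0.33, 2.25 and 2.28. The ratios of Col5a1 to Col5a2 and to Col5a3 were likewise higher in ERK1/2 null within all 3 pairs, and that of Col6a1 to Col6a2 lower. Col6a6, an alternative to the α3 chain, was dim, with a difference of −0.25 (limma adjusted p = 0.20) and groups that did not overlap.

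**Figure D3:**
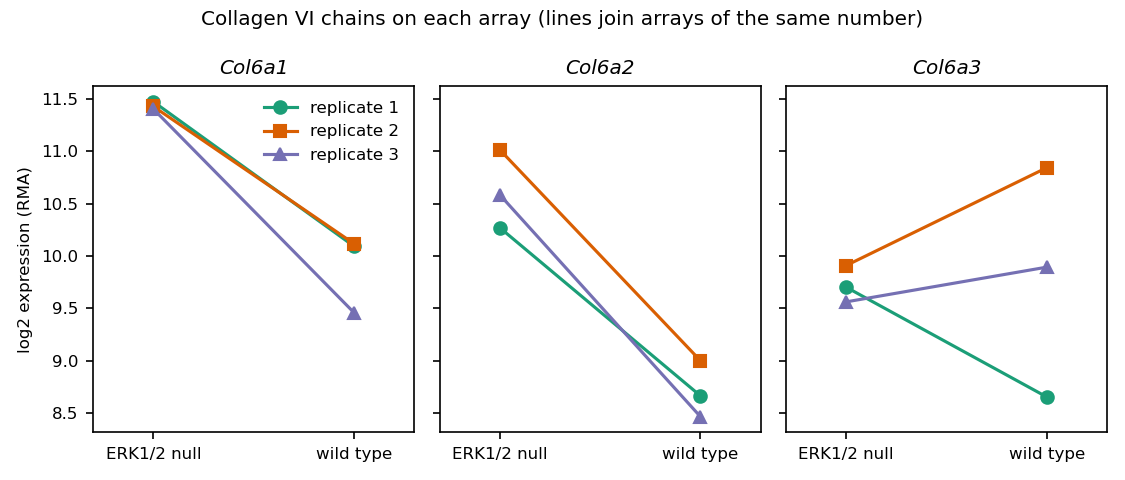
Log2 expression (vertical axis) of the 3 main collagen VI chain genes on each array, ERK1/2 null left and wild type right, with lines joining arrays of the same replicate number. Col6a1 and Col6a2 are higher in ERK1/2 null for each number, whereas Col6a3 is higher for replicate 1 and lower for replicates 2 and 3.

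Col14a1, a collagen of the fibril-associated kind that sits on collagen I fibrils, had 4.12, 4.84 and 5.06 in ERK1/2 null arrays, against 3.50, 3.66 and 3.39 in wild type arrays. It rose by 1.16 (SE 0.25, limma adjusted p = 0.034), from a signal in the dimmest 33.3% of genes, and lost the call in 5 of 6 fits without an array (adjusted p up to 0.121 without null replicate 2).

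Col12a1 and Col8a1 had differences over 1 without a call and a wide spread within groups. Col12a1, another fibril-associated collagen found where tissue is under tension, had 6.54, 9.76 and 9.50 in ERK1/2 null arrays, against 6.14, 6.60 and 8.16 in wild type arrays. Replicate 1 was the lowest array of each group. The difference of 1.63 had an interval from −0.67 to 3.93 (limma adjusted p = 0.35, blocked 0.093). It was 2.66 without null replicate 1 and 1.05 without null replicate 2 (0.054 and 0.65). Col8a1, a short-chain collagen made by vascular cells, had 9.87, 8.99 and 9.43 in ERK1/2 null arrays, against 9.91, 7.26 and 7.93 in wild type arrays. Here replicate 1 was the highest array of each group. The difference of 1.07 did not pass (limma adjusted p = 0.39), and was 1.62 without replicate 1 of both groups (limma adjusted p = 0.036), 1.84 without wild type replicate 1 (0.029) and 0.51 without wild type replicate 2 (0.71). Col16a1 had differences within numbered pairs of 0.02, −0.05 and 0.03, although its arrays ranged from 7.22 to 8.67. Over all genes the second principal component, with 25.5% of the variance, likewise set replicate 1 of both groups apart from replicates 2 and 3.

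**Figure D4:**
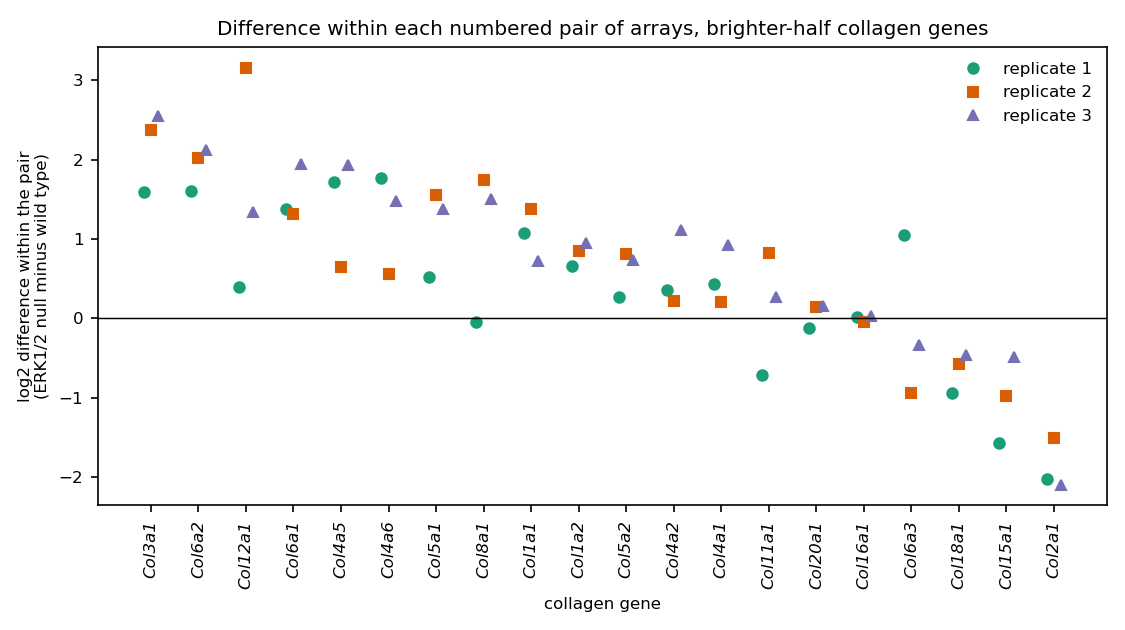
Log2 difference (ERK1/2 null minus wild type, vertical axis) within each numbered pair of arrays for the 20 collagen genes in the brighter 50% of genes, ordered by mean difference. For 12 genes all 3 points lie above 0 and for 3 genes below it, and Col12a1 shows the widest scatter.

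The other genes of the class, Col7a1 of anchoring fibrils, Col10a1 of hypertrophic cartilage, the transmembrane collagens Col13a1, Col17a1, Col23a1 and Col25a1, the collagen IX genes Col9a1, Col9a2 and Col9a3, Col8a2, Col20a1 and Col26a1, had differences between −0.24 and 0.25. Of these only Col23a1 had groups that did not overlap (0.25, 95% interval −0.04 to 0.54, limma adjusted p = 0.25).

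Leaving out 1 array changed the number of collagen genes called higher by more than 1.5 times in 3 fits. It was 4 without null replicate 2, 3 without null replicate 3 and 4 without wild type replicate 3. The genes called over the whole array, in either direction, fell from 1705 to 730, 880 and 897 in the same fits. Col3a1, Col6a1, Col6a2 and Col2a1 were called in all 6 fits without an array, and also at an adjusted p under 0.01 with all arrays.

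The promoters of the called genes that rose are shown because their call was shared, and that of Col6a3 as the third main chain gene of collagen VI, which was not called. In the set of promoters used here 31 of the 39 genes were matched, Col14a1 and Col2a1 not among them. Sequences are from RefSeq on GRCm38.p6. Each is the 150 bases directly before the annotated start furthest upstream, 5′ to 3′ on the strand of the gene, with capitals for matches on either strand to TATAAA (the TATA box), to CCAAT (the CCAAT box), to GGGCGG (the core of GC boxes) or to TGANTCA (the core of AP-1 sites). The windows are chr1:45311388-45311537, plus strand for Col3a1, chr6:4505468-4505617, plus strand for Col1a2, chr2:27886275-27886424, plus strand for Col5a1, chrX:141475269-141475418, plus strand for Col4a5, chr10:76726045-76726194, minus strand for Col6a1, chr10:76623631-76623780, minus strand for Col6a2 and chr1:90843972-90844121, minus strand for Col6a3.
Col3a1: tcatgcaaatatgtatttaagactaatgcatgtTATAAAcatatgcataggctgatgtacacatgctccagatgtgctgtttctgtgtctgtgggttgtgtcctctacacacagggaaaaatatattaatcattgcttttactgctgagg
Col1a2: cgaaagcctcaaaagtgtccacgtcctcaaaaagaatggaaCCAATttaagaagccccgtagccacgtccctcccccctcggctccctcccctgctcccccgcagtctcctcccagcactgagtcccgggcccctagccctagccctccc
Col5a1: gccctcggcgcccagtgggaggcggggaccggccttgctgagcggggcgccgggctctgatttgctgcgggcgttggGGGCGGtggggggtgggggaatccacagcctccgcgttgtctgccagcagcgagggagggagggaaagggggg
Col4a5: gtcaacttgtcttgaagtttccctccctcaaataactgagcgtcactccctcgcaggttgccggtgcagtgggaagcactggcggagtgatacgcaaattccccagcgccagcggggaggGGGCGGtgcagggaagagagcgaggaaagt
Col6a1: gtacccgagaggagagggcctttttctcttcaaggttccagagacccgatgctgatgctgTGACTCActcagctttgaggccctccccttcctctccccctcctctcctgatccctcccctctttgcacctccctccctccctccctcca
Col6a2: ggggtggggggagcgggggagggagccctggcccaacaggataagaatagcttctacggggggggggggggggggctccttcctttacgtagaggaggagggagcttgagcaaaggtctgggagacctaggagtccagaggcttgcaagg
Col6a3: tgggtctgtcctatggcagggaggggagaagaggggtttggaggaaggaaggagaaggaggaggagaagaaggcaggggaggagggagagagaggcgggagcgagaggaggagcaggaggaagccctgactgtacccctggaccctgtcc

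No motif was common to these 7 windows. The Col3a1 window held TATAAA beginning 117 bases before the start and had a G and C content of 37.3%, while the others had 59.3% to 74.7%. The Col1a2 window held CCAAT beginning 109 bases before the start, and those of Col5a1 and Col4a5 held GGGCGG beginning 73 and 30 bases before it. The Col6a1 window alone of the collagen windows held TGANTCA, beginning 90 bases before the start. Those of Col6a2 and Col6a3 held none of these letters. Over all 31 collagen windows GGGCGG occurred in 16 (51.6%, against 29% of 27025 promoters), CCAAT in 7 (22.6%, against 25.3%), TATAAA in 4 (12.9%, against 8.08%) and TGANTCA in 1 (3.23%, against 4.26%). A match is a description of these letters only.

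Several collagen genes lie next to each other, and 5 such neighbouring pairs had both genes measured. The head-to-head genes Col4a5 and Col4a6, whose annotated starts lie 1343 bases apart on the X chromosome, had differences of 1.43 and 1.27. Col4a1 and Col4a2, head to head with starts 21 bases apart on chromosome 8, had 0.52 and 0.57. Col6a1 and Col6a2 on chromosome 10 had 1.55 and 1.91, and Col4a3 and Col4a4 on chromosome 1 had 0.25 and 0.47. In the fifth pair, on chromosome 1, Col3a1 had 2.17 and Col5a2 had 0.61.

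Genes that fold, modify, export, trim and cross-link collagen gave 1 call among 24 measured, where 11.5% of all genes were called in either direction. The median difference of the 24 was 0.26. Of the 24 genes 21 lay among the 7430 brighter genes, of which 1413 were called in either direction. The list was written with 32 genes, of which Serpinh1, Fkbp10, Mia3, Pcolce, Adamts2, Adamts3, Adamts14 and Lox were not analysed here. Loxl2, a lysyl oxidase that cross-links collagen IV, had 7.74, 8.50 and 9.71 in ERK1/2 null arrays, against 5.20, 5.49 and 7.14 in wild type arrays, without overlap. It rose 6.53-fold (log2 difference 2.71, SE 0.67), with a limma adjusted p of 0.04997 that lay at the threshold. The adjusted p was 0.0023 with the block, 0.053 with an intensity trend and robust prior, 0.05002 with the mean of a gene's rows, and 0.114 to 0.138 in 4 of the 6 leave-one-out fits (without null replicate 2 or 3 or wild type replicate 1 or 2). With the block 4 of 24 rose and none fell, against 8.92% of all genes called higher (13.3% of the brighter genes) and 7.76% lower. Without the block 5 had an unadjusted p under 0.05 (20.8%, against 25.7% of all genes and 39.1% of the brighter genes). All 5 were higher (13.6% of all genes were higher at that p). The 3 added by the block were the lysyl hydroxylase Plod2 (difference 1.11, limma adjusted p = 0.14, blocked 0.0083), the procollagen C-proteinase Bmp1 (0.69, limma adjusted p = 0.20, blocked 0.020) and Creb3l1, a transcription factor of secretory cells that acts on collagen I genes (1.71, limma adjusted p = 0.085, blocked 0.028). The prolyl hydroxylase genes P4ha1, P4ha2, P4ha3 and P4hb had differences between −0.03 and 0.94, and none passed.

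Of 15 receptor, uptake and cleavage genes limma called 0, with 4 at an unadjusted p under 0.05 (26.7%, against 25.7% of all genes) and 3 called with the block (20.0%, against 16.7%). The membrane collagenase Mmp14 had the lowest unadjusted p (difference 0.50, limma adjusted p = 0.074). With the block the discoidin domain receptor Ddr1 and the lysosomal collagenase cathepsin K (Ctsk) were higher (differences 1.18 and 1.59, blocked limma adjusted p = 0.013 and 0.016) and the interstitial collagenase Mmp1a was lower (−3.67, blocked limma adjusted p = 0.041). Mmp1a had 2.45, 3.38 and 3.53 in ERK1/2 null arrays, against 3.73, 9.34 and 7.29 in wild type arrays, where wild type replicate 1 stood far below the other two. Itgb1, the β1 integrin subunit of the main collagen receptors, had a difference of 0.05 (95% interval −0.23 to 0.33). Itga1, Itga10 and Gp6, written in the same list, were not analysed here.

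**Figure D5:**
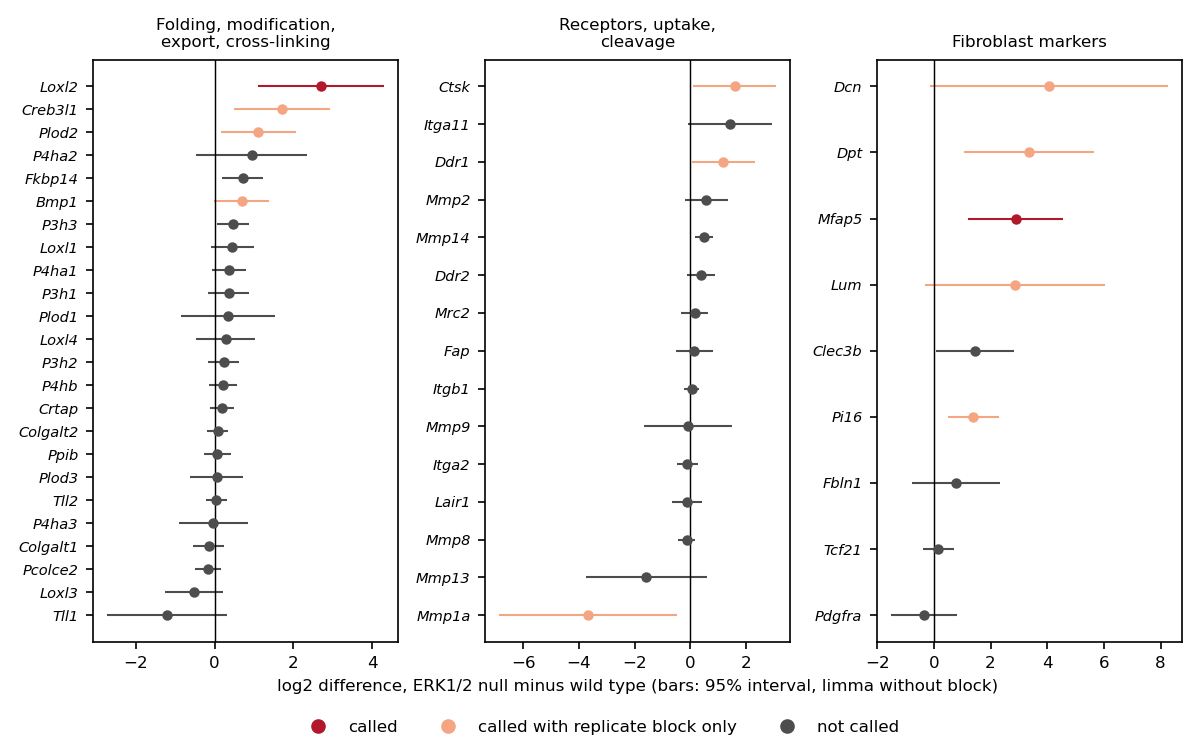
Log2 difference (ERK1/2 null minus wild type, horizontal axes) of collagen processing genes, of receptor, uptake and cleavage genes, and of fibroblast markers, with limma 95% intervals from the fit without the block. Loxl2 and Mfap5 were called, and a further 10 genes passed with the block only.

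Markers of other cells gave few calls without the block, while with it 55.6% of fibroblast and 33.3% of smooth muscle markers were higher. Beside the counts that follow, 11.5% of all genes were called in either direction (5.35% higher), 16.7% with the block (8.92% higher), and 25.7% had an unadjusted p under 0.05. Fibroblast markers had a summed level (log2 of the summed linear values) of 11.52 to 14.01 over the ERK1/2 null arrays and 11.02 to 11.83 over the wild type arrays. Of 9 fibroblast markers 1 rose (Mfap5, by 2.89) and none fell. With the block 5 rose and none fell, and without it 4 had an unadjusted p under 0.05. The median difference was 1.44, with 8 positive and 1 negative. The highest was that of Dcn (4.07, called with the block only), and the negative one that of the fibroblast receptor gene Pdgfra (−0.34). Of 9 smooth muscle markers none was called (4 at an unadjusted p under 0.05, and 3 higher with the block), and their summed level was 12.45 to 13.32 in ERK1/2 null and 11.59 to 12.51 in wild type arrays. The 12 endothelial markers gave 0 calls by limma, 0 at an unadjusted p under 0.05 and 0 with the block. Their summed level was 9.62 to 10.25 in ERK1/2 null and 9.37 to 9.98 in wild type arrays. Of 6 leukocyte markers none was called (0 at an unadjusted p under 0.05, and 1 higher with the block), with summed levels of 7.04 to 7.43 in ERK1/2 null and 6.90 to 7.06 in wild type arrays, and of 4 mesothelial markers 1 rose, with 7.49 to 7.63 in ERK1/2 null and 6.79 to 7.83 in wild type arrays. The part of other cell types in the collagen differences was not tested.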

How the data were processed

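RNA from 3 ERK1/2 null and 3 wild type cultures was measured on Affymetrix arrays. The deposited table holds log2 values (0.74 to 14.32, the log2 scale read from the values), made by the authors with RMA, per the submitters' processing notes; version, chip description and genome build are not given in the sources used here. Of 16775 rows, 14996 named 1 gene, 1019 several and 760 were not listed; only the first were used, by the row with the highest mean, which gave 14860 genes named through GRCm38.p6. No collagen gene had several rows.

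Groups were taken from titles. Differences were tested with limma 3.58.1 (lmFit, eBayes) in R 4.3.3, 2-sided, with Benjamini-Hochberg adjustment over all genes, and the script was tested on simulated data. Promoters were read with Python 3.11.15 and pandas 2.3.3. Arrays of the same title number deviated together from their group means (r across genes 0.57, 0.35 and 0.45), so the numbers were taken to pair the arrays. The main fit has no block. Blocked values are given where they change a call, and also for Col4a1, Col4a2, Col5a2, Col5a3 and Col12a1. The number of arrays limited precision, and no depth applies.

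Described in full were members called without or with the block, the 3 highest and 3 lowest differences, partner chains of called genes, up to 6 called genes per direction of the processing and receptor lists, and, where a list or class had no call, its lowest p. Col8a1, Col16a1 and the dimmer members were named after their values were seen. The members and lists were chosen with earlier results of these data known.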

Additional observations from a re-analysis of the deposited data

How the results depend on the processing

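The number of collagen genes called lower (1) was 2 with quantile normalization, with array medians subtracted and with the filter on level, and 3 with the replicate block. The number called higher (7) was 3 at an adjusted p under 0.01 and 3 to 7 without single arrays. The median of fibrillar genes (0.36) was 0.48 with the filter on level, which kept 35 of the 39 genes, 0.31 to 0.52 without single arrays and 0.55 without replicate 1 of both groups, a fit added after the data were seen. Processing genes called (1) were 0 with an intensity trend and robust prior, with the mean of a gene's rows and at an adjusted p under 0.01, 0 to 1 without single arrays and 4 with the replicate block. Receptor and cleavage genes called (0) were 3 with the block, 0 to 3 without single arrays and 4 without replicate 1 of both groups. The cause was not tested, and fits without arrays have fewer degrees of freedom. None of the 14 collagen genes followed through these settings changed direction. With the block the genes called over all rose to 2479, against 1705. They fell to 545 at an adjusted p under 0.01 and to between 730 and 1331 without single arrays.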
